A study of Rattus norvegicus with 4 samples.

Results

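The ischemia array was set against the sham array to describe what skeletal muscle of ischemic rats expressed differently from muscle of sham rats. These were 2 of the 4 arrays of a study of intermittent claudication, in which poor blood supply makes the leg hurt during walking. All rats were of the inbred strain F344/DuCrlCrlj. The 4 groups had 1 array each and were labelled ischemia + ES (electrical stimulation), ischemia + exercise, ischemia and sham. The ischemia array thus comes from ischemic muscle without either treatment. Which muscle was sampled, how ischemia was produced, how long it lasted, the age of the animals and whether RNA of several animals was pooled are not stated in the labels. With 1 array per group there is no replicate, no error of a value and no test. Each difference below is between these 2 arrays, and precision is limited by their number.

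Values are MAS5 signals, the authors' linear intensity of a set of probes for 1 transcript. Signals under the median of all values of the 4 arrays, 30.1, were set to that floor before a ratio was taken. A gene stood as its brightest probe set and was counted as higher or lower where ischemia over sham reached 2-fold, a log2 ratio of 1. Of 10092 genes compared, 79 were higher with ischemia (0.783%) and 87 lower (0.862%), 166 in all (1.64%). Each list count below is to be read against these shares, at which a short list can readily hold none. The middle of the distribution was narrow, with a median log2 ratio of 0.00 and the 5th and 95th percentiles at -0.47 and 0.58. Differences over 4-fold were found for 3 genes higher and 21 lower with ischemia. Just inside the threshold lay Cd300c2, at 268 with ischemia and 134 in sham, and Dusp1, at 766 and 1533. Just outside it lay Cdkn1c, at 447 with ischemia and 224 in sham, and Fgfr3, at 35.6 and 71.1. In 11 of the higher genes sham was at the floor and in 19 of the lower genes ischemia was, so their ratios are bounds and are written "at least".

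The tissue matched its label. Genes of the muscle fibre gave strong signals on both arrays, with 9908 for ischemia and 11291 for sham for the skeletal actin gene Acta1, 9059 and 9954 for the muscle creatine kinase gene Ckm, and 10970 and 10824 for the titin gene Ttn. The 18 hybridisation controls, spiked in at fixed amounts, had log2 ratios of ischemia over sham between -0.10 and 0.16. The ratio of 3' to 5' signal of actin, which grows as RNA degrades, was 3.81 for ischemia and 4.38 for sham. For GAPDH it was 1.04 and 1.16.

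**Figure D1:**
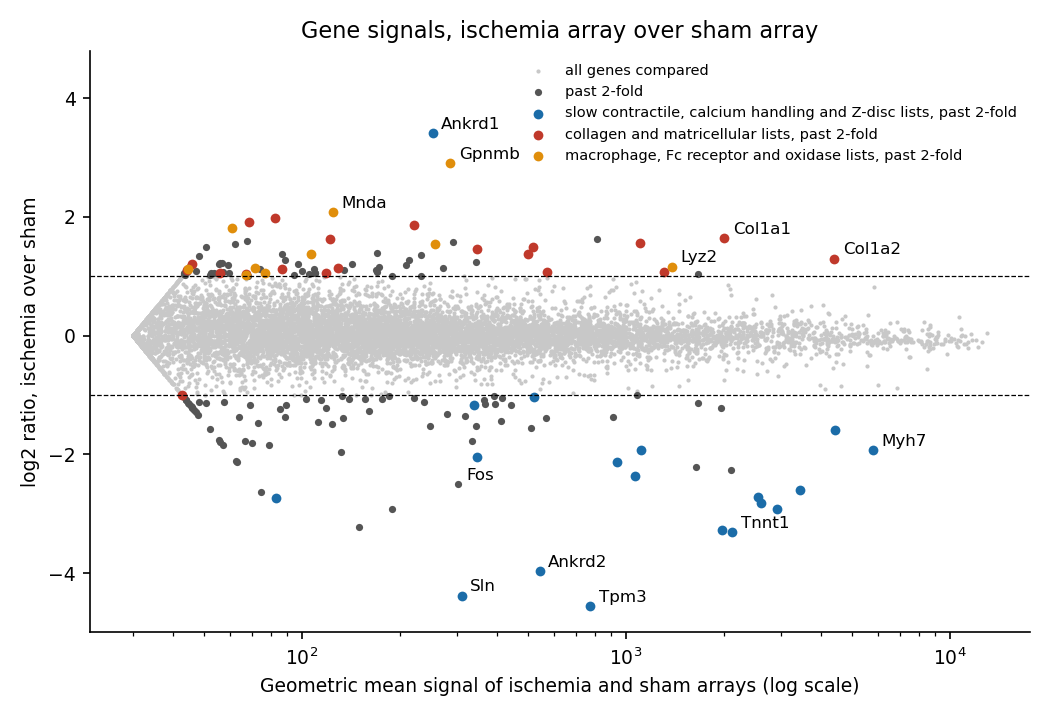
Each point is a gene, with the geometric mean of its floored ischemia and sham signals on a log axis and the log2 ratio of ischemia over sham on the other. Dashed lines mark 2-fold, and colours mark genes past 2-fold that belong to the named lists. The slow-fibre, calcium and Z-disc genes lie down to a log2 ratio of -4.55 (Tpm3) and Ankrd1 is the highest point at 3.41.

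Skeletal muscle fibres are slow or fast by the isoforms of myosin, troponin, tropomyosin and calcium pump that they make. Slow fibres are oxidative, resist fatigue and are kept in that state by tonic nerve activity and by factors such as calcineurin, NFAT and MEF2. Injured or poorly perfused muscle takes in macrophages and lays down collagen from fibroblasts. Because the RNA came from a piece of tissue, fewer cells of a type and less RNA per cell cannot be told apart in any of the results.

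Genes of the slow fibre were among those furthest below sham. In the list of slow contractile proteins, all 7 measured genes were more than 2-fold lower with ischemia, against 0.862% of all genes compared, and their median log2 ratio was -2.83 against 0.00 for all genes. The fast contractile list had 0 of 12 measured genes past 2-fold in either direction, with a median of -0.13, and under quantile normalization -0.04.

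The promoters of 4 genes lower with ischemia are shown, from the Z-disc list (Myoz2 and Fhl2), the calcium list (Casq2) and the slow contractile list (Tnni1), because a minority of lower genes shared a motif there. They are the 250 bases before the RefSeq start on build GRCr8, given 5' to 3' on the strand of the gene. Capitals mark the MEF2 box, a binding sequence of the MEF2 factors of muscle, and the E-box CANNTG, which myogenic factors such as MyoD bind. For Tnni1 the capitals mark E-boxes alone. The MEF2 box of Fhl2 overlaps a TATA sequence (TATAAA, read on the other strand), so its letters match both motifs.
Myoz2, chr2:213852779-213853028, minus strand: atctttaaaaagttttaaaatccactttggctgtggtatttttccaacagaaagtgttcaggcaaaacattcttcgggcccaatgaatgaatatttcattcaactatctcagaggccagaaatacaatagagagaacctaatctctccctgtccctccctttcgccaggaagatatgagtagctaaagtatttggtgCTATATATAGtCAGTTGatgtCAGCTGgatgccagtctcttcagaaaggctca
Casq2, chr2:192214306-192214555, plus strand: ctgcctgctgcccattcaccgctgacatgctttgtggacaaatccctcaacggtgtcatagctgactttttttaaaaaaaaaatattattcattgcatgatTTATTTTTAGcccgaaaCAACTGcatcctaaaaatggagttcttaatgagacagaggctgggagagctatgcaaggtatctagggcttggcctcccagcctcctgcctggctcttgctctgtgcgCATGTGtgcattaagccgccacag
Fhl2, chr9:52954541-52954790, minus strand: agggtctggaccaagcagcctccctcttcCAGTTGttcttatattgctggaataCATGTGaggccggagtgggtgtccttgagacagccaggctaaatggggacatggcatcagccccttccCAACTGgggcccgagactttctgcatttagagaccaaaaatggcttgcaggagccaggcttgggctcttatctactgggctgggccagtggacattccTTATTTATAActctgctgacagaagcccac
Tnni1, chr13:49781279-49781528, plus strand: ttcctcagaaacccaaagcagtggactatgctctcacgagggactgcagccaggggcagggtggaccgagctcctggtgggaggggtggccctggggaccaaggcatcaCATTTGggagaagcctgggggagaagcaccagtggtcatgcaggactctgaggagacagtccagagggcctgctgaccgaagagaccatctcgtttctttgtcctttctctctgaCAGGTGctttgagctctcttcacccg
The first 3 were shown because each holds a MEF2 box (CTATATATAG in Myoz2, TTATTTTTAG in Casq2 and TTATTTATAA in Fhl2), and Tnni1 to stand for the slow contractile genes. Promoters were found for 5 of those 7 genes (Tpm3, Tnnt1, Tnni1, Myh7 and Myl3), and 0 of the 5 held a MEF2 box.

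RefSeq promoters were found for 121 of the 166 genes past 2-fold, and 8 motifs were searched on both strands of the same window. The MEF2 box was present in 8 of 62 promoters of lower genes (12.9%), in none of 59 promoters of higher genes and in 1.62% of the 8439 promoters of genes compared. The 8 genes were Myoz2, Fhl2, Casq2, Xirp1, Hspb7, Hspa1a, Asb18 and Actr3b. In 2 of them, Fhl2 included, the box overlapped a TATA sequence (TATAAA). E-boxes were common everywhere, at 75.8% of lower, 69.5% of higher and 56.0% of compared genes. The CArG box, bound by serum response factor, stood in 3.23% of lower genes (Fhl2 and Myl3), in no higher gene and in 1.33% of genes compared. The shares in the same order were 16.1%, 10.2% and 6.51% for TATA, 11.3%, 8.47% and 4.30% for AP-1 (TGANTCA), and 27.4%, 40.7% and 22.7% for the PU.1 box (GAGGAA) of myeloid genes. MCAT (CATTCC) stood in 10 of 62 lower, 8 of 59 higher and 845 of 8439 compared genes. For CRE (TGACGTCA) 8.06% of lower genes, no higher gene and 2.95% of genes compared had a match. Over all RefSeq promoters of rat, 3.07% held a MEF2 box and 65.2% an E-box. These are matches of letters in a fixed window. They show neither binding nor a cause, and a missing match says only that the letters are not in this window. No group of muscle genes within 2-fold was searched. The shares therefore cannot tell genes lower with ischemia from muscle genes in general.

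The slow myosin heavy chain gene Myh7 had a signal of 4827 with ES, 12422 with exercise, 2970 with ischemia and 11340 in sham. The light chains of slow myosin had the same order of arrays, with 2455, 6814, 995 and 6516 for Myl2 and 4967, 8949, 2550 and 7677 for Myl3 on the same arrays. The ischemia array was the lowest of the 4 for all 3 myosin genes, the exercise array the highest, and the ES array lay between ischemia and sham. Ischemia was 3.82-fold below sham for Myh7, 6.55-fold for Myl2 and 3.01-fold for Myl3. A dimmer probe set of Myh7 gave a larger difference, at 102 with ischemia and 1543 in sham, a log2 ratio of -3.91. The other probe set of Myl2 was near the floor, at 22.6 and 42.5.

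The slow troponin complex was lower in each of its 3 subunits. Tnnt1, the subunit that binds tropomyosin, read 1278 with ES, 8659 with exercise, 676 with ischemia and 6702 in sham. For Tnnc1, the calcium sensor, the signals in the same order were 2013, 9176, 1062 and 8049. Tnni1, the inhibitory subunit, read 2224, 8435, 977 and 6929. As for myosin, ischemia was lowest and exercise highest, and ischemia lay 9.92-fold, 7.58-fold and 7.09-fold below sham. The other probe set of Tnni1 gave a log2 ratio of -3.21.

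The fast paralogs differed little by comparison. Tnnt3 read 10546 with ischemia and 12222 in sham, Tnnc2 8738 and 9532, and Tnni2 9868 and 11174. Fast myosin Myh4 read 13178 and 12841, Myh1 6912 and 7257, and Myh2, the fast oxidative isoform, 8834 and 10914, a log2 ratio of -0.31 that was the lowest of the fast list.

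Tpm3, the slow tropomyosin gene, had the lowest ratio of all. Its brightest probe set read 180 with ES, 4794 with exercise, 160 with ischemia and 3756 in sham, so that ischemia was 23.5-fold below sham and ES was near ischemia. The log2 ratios of its 5 other measured probe sets ran from -0.67 to 0.07, and on the mean of its probe sets the log2 ratio of Tpm3 was -0.48, within 2-fold.

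**Figure D2:**
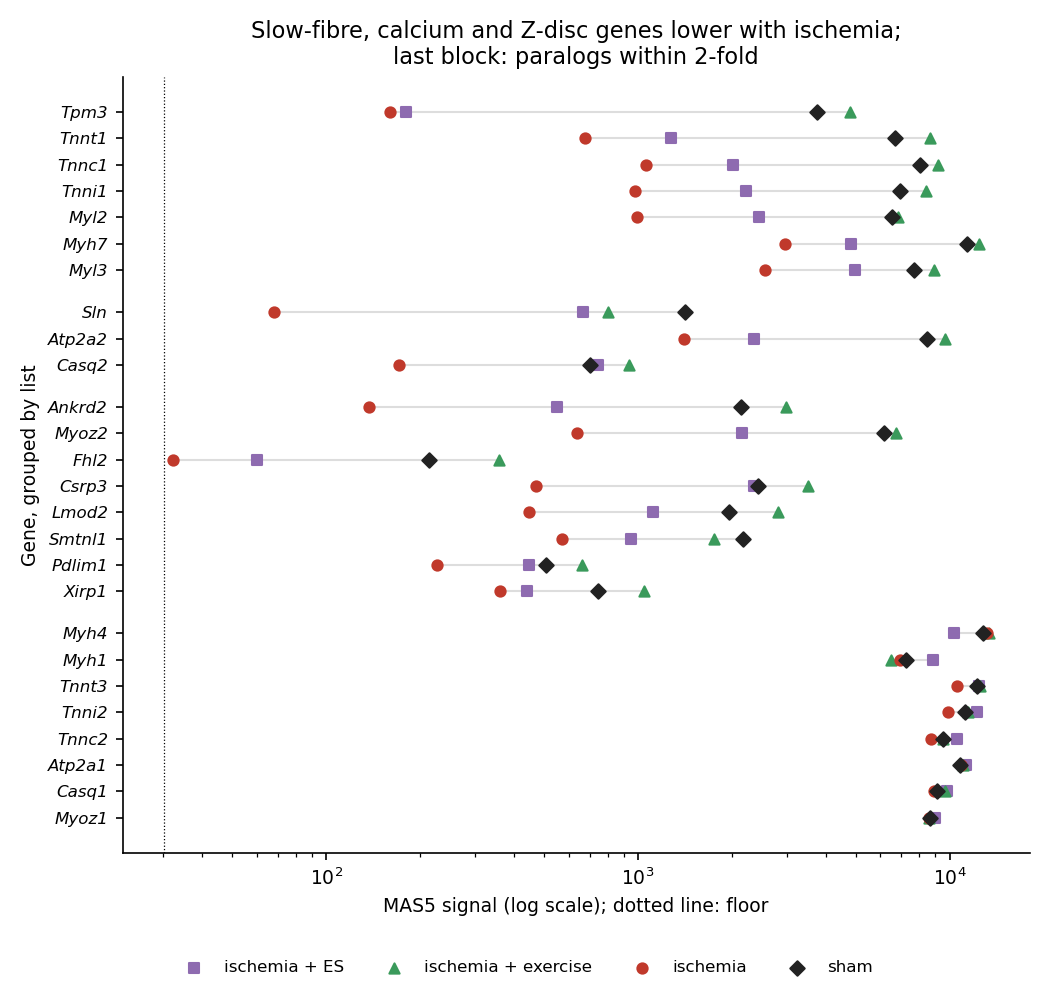
Rows are genes in blocks by list (slow contractile, calcium handling, Z-disc and stretch, and a last block of paralogs within 2-fold), and symbols give the MAS5 signal on each of the 4 arrays on a log axis. The upper blocks hold only genes past 2-fold lower with ischemia, so Ankrd1 is not shown. There the ischemia array is the leftmost symbol, as for Sln at 68.2 against 1420 in sham. The symbols of the paralogs lie close together.

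Of 25 measured genes of the calcium handling list, 3 were more than 2-fold lower with ischemia, against 0.862% of all genes compared, and 0 were higher. Most of the list lay within 2-fold, with a median log2 ratio of 0.03. Sln encodes sarcolipin, a small inhibitor of the calcium pump, and read 665 with ES, 802 with exercise, 68.2 with ischemia and 1420 in sham. That is 20.8-fold below sham, and sham was the highest array. Atp2a2, the calcium pump SERCA2 of slow and cardiac muscle, read 2363, 9694, 1405 and 8479, which put ischemia 6.03-fold below sham. Its 3 dimmer probe sets had smaller log2 ratios, from -1.05 to -0.90. Casq2, the calcium-binding protein calsequestrin of slow and cardiac muscle, read 746, 936, 171 and 704, with ischemia 4.11-fold below sham and the other 3 arrays close together. Its second probe set gave a log2 ratio of -2.09.

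Other genes of the list were within 2-fold. The fast calcium pump gene Atp2a1 read 10854 with ischemia and 10836 in sham, and fast calsequestrin Casq1 read 8947 and 9136. Pvalb, the calcium buffer of fast fibres, read 11901 and 9607. Pln, phospholamban, which inhibits the pump of slow and cardiac muscle, was dim and read 58.4 and 57.5. The ryanodine receptor gene Ryr1, the release channel, read 5492 and 4898.

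In the Z-disc and stretch list, of Z-disc, LIM, ankyrin repeat and other sarcomere genes, 8 of 34 measured were lower and 1 higher with ischemia. The list median was -0.19. Over all genes compared 0.862% were lower and 0.783% higher. Ankrd2, an ankyrin repeat protein that moves between sarcomere and nucleus, read 549 with ES, 2978 with exercise, 137 with ischemia and 2141 in sham, 15.6-fold below sham. Myoz2, which tethers calcineurin at the Z-disc, read 2160, 6725, 637 and 6181, 9.71-fold below sham. Csrp3, the muscle LIM protein, read 2360, 3525, 470 and 2424, 5.16-fold below sham, with the ES array near sham. Lmod2, which nucleates actin at the thin filament end, read 1114, 2812, 446 and 1960, 4.40-fold below sham. Ischemia was the lowest array for these 4 genes too.

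Fhl2, a LIM cofactor of transcription, read 59.8 with ES, 359 with exercise, 32.1 with ischemia and 214 in sham, and its other probe set gave a log2 ratio of -1.78 with ischemia at the floor. Smtnl1, a smoothelin-like protein regulated by exercise signalling, was 3.82-fold below sham at 570 with ischemia and 2178 in sham. Pdlim1 was 2.24-fold and Xirp1, an actin-binding protein of stressed sarcomeres, 2.05-fold below sham. Partners that stayed within 2-fold were Myoz1, the fast Z-disc paralog (8606 with ischemia, 8644 in sham), Ldb3 (6274 and 6330), Des (8833 and 9132) and Actn2 (2972 and 5308, a log2 ratio of -0.84).

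One member of the Z-disc and stretch list went the other way, and it had the highest ratio of all genes compared. Ankrd1, the paralog of Ankrd2 that is induced in injured or denervated muscle, read 1298 with ES, 75.7 with exercise, 826 with ischemia and 77.7 in sham. Ischemia was 10.6-fold above sham, ES was higher still, and exercise and sham were alike. Its second probe set gave a log2 ratio of 3.14. Ankrd23, the third member of the family, read 5078 with ischemia and 4658 in sham.

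Regulators of the slow programme differed less. Of 25 measured, 2 were lower with ischemia and 0 higher, with a median of -0.23. Prox1, a homeobox factor of slow fibres and lymphatic vessels, read 49.2 with ES, 225 with exercise, 26.7 with ischemia and 130 in sham, at least 4.31-fold below sham. The lymphatic marker Lyve1 read 172 with ischemia and 231 in sham. Rcan1, a calcineurin inhibitor that calcineurin itself induces, read 319, 559, 203 and 584 in the same order, 2.88-fold below sham. Within 2-fold were Esrrg (492 with ischemia and 960 in sham), an orphan receptor of oxidative fibres, Ppargc1a (250 and 308), Nfatc1 (579 and 641), Mef2c (6317 and 6116) and Sox6 (167 and 168), a repressor of slow genes.

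Rrad, a small GTPase that inhibits calcium channels, read 117 with ES, 883 with exercise, 49.1 with ischemia and 459 in sham, 9.36-fold below sham. Its relative Rem1 was dim, at 33.1 and 53.5 with ischemia and in sham. Xpo4, a nuclear export receptor, followed the same order of arrays with 89.7, 788, 69.0 and 521, and its 2 other probe sets had log2 ratios of -1.28 and -1.27.

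Oxidative metabolism showed few large differences beside those of slow isoforms. Ldhb, the lactate dehydrogenase subunit of oxidative muscle and heart, read 3357 with ES, 4758 with exercise, 966 with ischemia and 4615 in sham. Ischemia was 4.78-fold below sham and alone among the 4 arrays, while Ldha, the glycolytic subunit, read 9948 with ischemia and 10177 in sham. Ldhb was the only one of 37 measured glycolysis and glycogen genes past 2-fold, and the list median was 0.00.

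Of 34 measured genes of fatty acid use, 29 had a ratio below 0, with a median of -0.40, but 1 was past 2-fold lower and 1 higher. Lpl, the lipase that frees fatty acids at the capillary wall, read 2254 with ES, 2817 with exercise, 1284 with ischemia and 2986 in sham, 2.32-fold below sham. Angptl4, an inhibitor of that lipase, read 122, 61.5, 85.7 and 36.5, 2.35-fold above sham, with ES highest. Fabp3, the fatty acid carrier of muscle, read 3002 with ischemia and 5609 in sham, and the uptake receptor gene Cd36 read 360 and 628. Of the citrate cycle and respiratory chain, 0 of 34 measured genes were past 2-fold, the median log2 ratio was -0.09, and 31 genes were below 0. The lowest was Cox7a1, the muscle isoform of a cytochrome oxidase subunit, at 205 and 347. Under quantile and cyclic loess normalization the median of the citrate cycle and respiratory chain list lay closer to that of all genes, at -0.03 and -0.04.

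In nucleotide metabolism 2 of 20 measured genes were lower. Cda, cytidine deaminase, read 10.1 with ES, 254 with exercise, 20.8 with ischemia and 187 in sham, so that ES and ischemia were both under the floor and ischemia was at least 6.19-fold below sham. Ampd3, an AMP deaminase isoform, read 341, 381, 147 and 419, 2.86-fold below sham, while Ampd1, the main muscle isoform, read 6297 with ischemia and 4945 in sham. Among lipid genes outside the lists, G0s2, the inhibitor of adipose triglyceride lipase, read 1120 with ischemia and 2474 in sham, and Mid1ip1, Agpat2, Nceh1 and Pla2g12a were 2.07-fold to 2.25-fold lower.

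Immediate early genes, which respond within minutes to a stimulus, were lower in 5 of 23 measured cases and higher in 0. The share lower over all genes compared was 0.862%, and the list median was -0.28. On the mean of each gene's probe sets 2 of the 23 were lower, with Klf2, Nr4a2 and Dusp1 within 2-fold. Fos, a subunit of AP-1, read 115 with ES, 298 with exercise, 127 with ischemia and 719 in sham. Sham was the highest array and ischemia 5.64-fold below it. Atf3, a stress-induced repressor, read 102, 283, 67.0 and 259, with exercise and sham alike and ischemia 3.87-fold below sham. Klf2, a factor induced by shear stress in endothelium, read 442, 508, 351 and 913, but its 3 other probe sets had log2 ratios from -1.58 to -0.04. Nr4a2 was at the floor on every array but sham, where it read 69.2, and Dusp1, a phosphatase of MAP kinases, lay at the threshold. Another probe set of Dusp1, at the floor with ischemia, gave a log2 ratio of -0.51. Jun (1282 with ischemia, 1560 in sham), Egr1 (183 and 242) and Nr4a1 (775 and 868) were within 2-fold.

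Of 23 measured chaperone genes 2 were lower and 0 higher, with a median of -0.19. Hspb7, a small heat shock protein of muscle, read 2754 with ES, 4395 with exercise, 767 with ischemia and 3546 in sham, 4.62-fold below sham, while its dimmer probe set gave a log2 ratio of -0.68. Hspa1a, the inducible HSP70, read 209, 580, 177 and 443, 2.51-fold below sham.

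At the neuromuscular junction 2 of 16 measured genes were lower, against 0.862% of all genes compared, and 0 higher, with a median of -0.09. Chrnd, the delta subunit of the acetylcholine receptor, read 265 with ES, 89.6 with exercise, 55.7 with ischemia and 132 in sham, 2.36-fold below sham. Colq, the collagen tail that anchors acetylcholinesterase, was at least 2.44-fold below sham at 23.1 against 73.4. Chrna1 (118 with ischemia, 126 in sham) and Chrnb1 (158 and 140) were within 2-fold. Of the muscle atrophy list 0 of 22 measured genes were past 2-fold, with the ubiquitin ligase genes Trim63 at 1867 with ischemia and 1636 in sham and Fbxo32 at 51.1 and 56.1.

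The list of developmental contractile proteins, which also held cardiac and other muscle proteins, gave 2 higher genes of 8 measured, against 0.783% of all genes compared. Mybph, a myosin-binding protein, read 1307 with ES, 1210 with exercise, 2380 with ischemia and 1164 in sham, 2.05-fold above sham and highest of the 4. Myh8, the perinatal myosin heavy chain, read 2393, 44.99, 86.4 and 36.9, so the ischemia signal was 2.34-fold above sham but far under that of ES. The embryonic myosin gene Myh3 read 180 with ischemia and 170 in sham. In the myogenic list 1 of 19 measured genes was lower, Sdc4, a heparan sulphate proteoglycan of satellite cells, at 274 and 556. Igf2 (802 with ischemia, 408 in sham) and Cdkn1c (447 and 224), both imprinted growth genes, lay just under 2-fold.

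**Figure D3:**
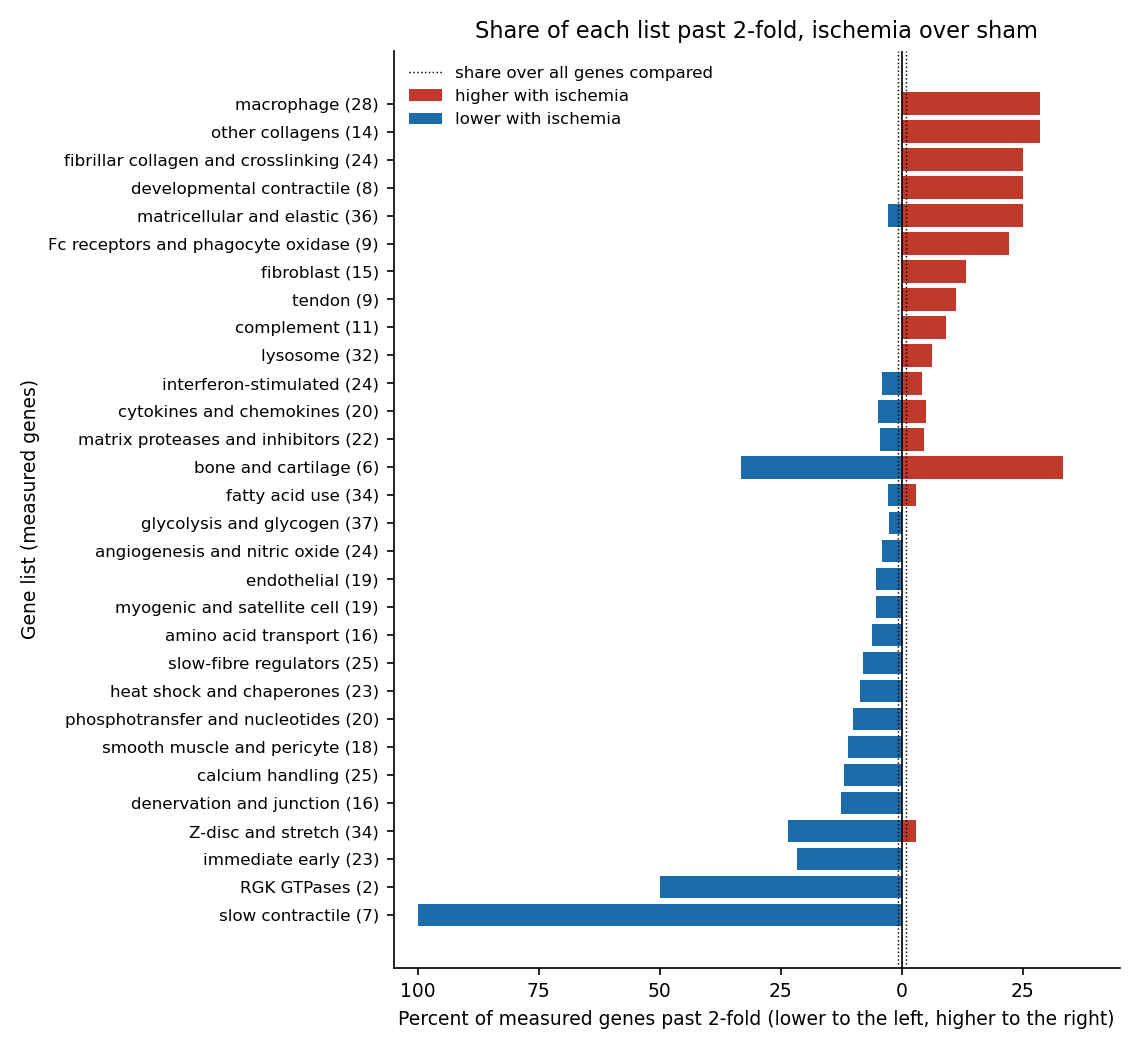
For each list with a gene past 2-fold, bars give the percent of its measured genes (number in brackets) that were lower with ischemia, to the left, or higher, to the right. Dotted lines mark the shares over all genes compared, 0.862% lower and 0.783% higher. The slow contractile list reaches all of its 7 genes on the left, and among lists of more than 10 genes the macrophage, collagen and matricellular lists reach furthest to the right.

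Collagens and other matrix proteins made up much of the higher side. In the list of fibrillar collagens and their processing, 6 of 24 measured genes were higher with ischemia and 0 lower, against 0.783% of all genes compared, and 22 had a ratio above 0, with a median of 0.75. Col1a1 and Col1a2, the chains of type I collagen, read 2385 and 4819 with ES, 1000 and 2878 with exercise, 3561 and 6889 with ischemia, and 1137 and 2802 in sham. Ischemia was highest for both chains, 3.13-fold and 2.46-fold above sham, ES came next, and exercise and sham were alike. Second probe sets gave log2 ratios of 1.78 and 1.24. Lox, the enzyme that crosslinks collagen, read 296 with ES, 179 with exercise, 421 with ischemia and 116 in sham, 3.62-fold above sham, and a second probe set gave 1.91.

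Pcolce, which enhances trimming of procollagen, read 483, 211, 573 and 209 in the same order, 2.74-fold above sham. Col5a3 was 2.09-fold above sham, and P4ha3, a prolyl hydroxylase subunit, at least 2.15-fold. Col3a1, the chain of type III collagen, read 7707 with ischemia and 4383 in sham, a log2 ratio of 0.81, and the prolyl hydroxylase genes P4ha1 (416 and 422) and P4ha2 (232 and 214) were within 2-fold.

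Type VI collagen, the beaded microfibril around muscle fibres, was higher in its 3 main chains on their brightest probe sets. Col6a1 read 1174 with ES, 405 with exercise, 828 with ischemia and 394 in sham, 2.10-fold above sham. Col6a3 read 1980, 895, 1897 and 898, 2.11-fold above sham. Col6a2 read 201, 55.8, 192 and 87.2, 2.20-fold above sham, with a log2 ratio of 0.87 on its other probe set. For all 3 chains the ES and ischemia arrays lay above the exercise and sham arrays. Col6a6, a further chain that was in no list, was 2.07-fold above sham. The fibril-associated Col14a1 was 2.60-fold above sham on its brightest probe set and at a log2 ratio of 0.30 on another. These made 4 of 14 measured genes of the list of other collagens higher and 0 lower, with a median of 0.54. On the mean of probe sets, those at the floor included, 2 of the 14 were higher, as Col6a3 (log2 ratio 0.54) and Col14a1 (0.84) came within 2-fold. Among basement membrane genes 0 of 11 laminins, nidogens and their partners were past 2-fold (median 0.18), and Col4a1 read 687 with ischemia and 397 in sham.

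Matricellular and elastic proteins gave 9 higher and 1 lower of 36 measured genes, against 0.783% and 0.862% of all genes compared, with a median of 0.62. Postn, periostin, which binds collagen and integrins in healing tissue, read 1369 with ES, 834 with exercise, 1898 with ischemia and 642 in sham, 2.96-fold above sham. Tnc, tenascin C, read 101, 83.8, 215 and 69.5, 3.10-fold above sham and highest with ischemia. Cthrc1, a secreted protein of injured vessels, read 81.8, 33.5, 133 and 35.5, 3.75-fold above sham. The list also held secreted modulators of Wnt signalling. Sfrp2 read 79.4 with ES, 22.9 with exercise, 164 with ischemia and 41.3 in sham, 3.96-fold above sham, and Sfrp4 read 321, 308, 867 and 307, 2.82-fold above sham with the other 3 arrays alike. Wif1, another Wnt inhibitor that was in no list, was 2.28-fold above sham.

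Spp1, osteopontin, read 259 with ES, 25.7 with exercise, 128 with ischemia and 58.6 in sham, 2.18-fold above sham. Srpx2 was at least 2.32-fold, Thbs2 2.07-fold and Mfap2, a microfibril protein, 2.06-fold above sham. Fn1, fibronectin, read 1464 with ischemia and 785 in sham and did not reach 2-fold. Ccn2, a growth factor-induced matrix protein, read 958 and 1415, and Tgfb2 175 and 179. Of the small leucine-rich proteoglycans 0 of 9 were past 2-fold, although 9 of 9 had a ratio above 0, with a median of 0.43. Among proteases and inhibitors 1 of 22 measured genes was higher, Ctsk, cathepsin K, at 278 with ischemia and 105 in sham, and 1 was lower.

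**Figure D4:**
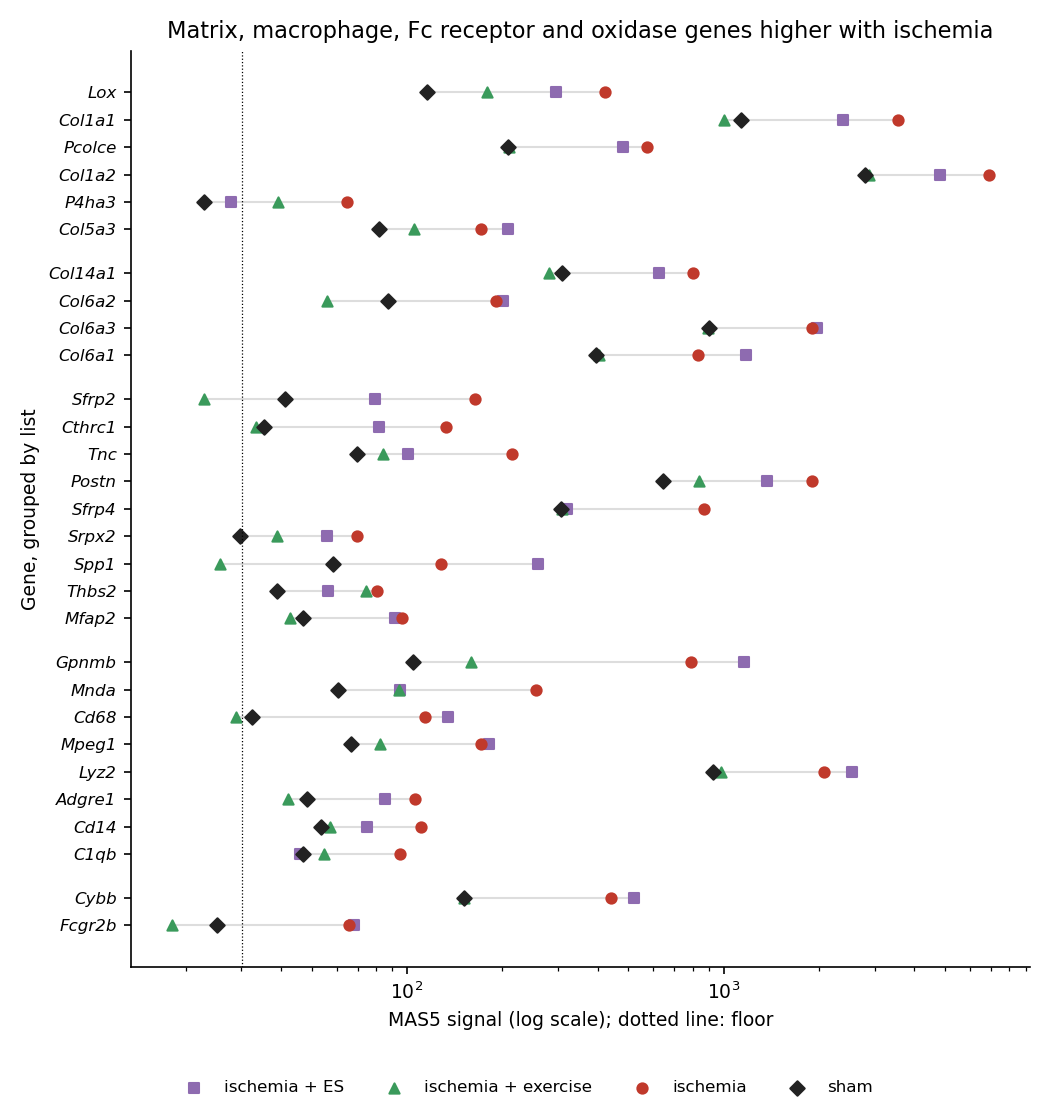
Rows are genes past 2-fold higher with ischemia in the collagen, matricellular, macrophage, and Fc receptor and oxidase lists, and symbols give the MAS5 signal on each of the 4 arrays on a log axis. The rows were chosen for ischemia lying right of sham, as for Col1a1 at 3561 with ischemia against 1137 in sham, and dim genes such as Fcgr2b have sham left of the floor line.

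Markers of fibroblasts and tendon are given beside the matrix genes. Of 15 measured fibroblast markers 2 were higher and 0 lower, with a summed signal of 11075 with ischemia and 7781 in sham. The general fibroblast markers Pdgfra (324 with ischemia, 197 in sham) and Dpt (1459 and 863) lay within 2-fold, and Thy1 (146 and 68.2) was past it. On the mean of probe sets 0 of the 15 were past 2-fold. Of 9 measured tendon markers 1 was higher, with a summed signal of 2674 and 1811. Tnmd, tenomodulin, the membrane protein of tendon cells, read 108 with ES, 194 with exercise, 333 with ischemia and 138 in sham, while Scx, the tendon transcription factor, read 302 with ischemia and 363 in sham. The part of either cell type in the matrix results was not tested.

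Genes of macrophages formed the other large group on the higher side. Of 28 measured markers 8 were higher with ischemia, against 0.783% of all genes compared, and 0 lower. A ratio above 0 was found for 26, and the median was 0.75 against 0.00 for all genes. Of the 28, 27 were above the floor with ischemia and 22 in sham. A marker at the floor in sham but not with ischemia can only have a ratio above 0, so the 26 are not all free to go either way. The summed signal was 6793 with ischemia and 3181 in sham. Gpnmb, a glycoprotein of lipid-laden and tissue-repair macrophages, read 1158 with ES, 160 with exercise, 787 with ischemia and 105 in sham, 7.50-fold above sham. Cd68, a lysosomal protein of macrophages, read 135, 28.8, 114 and 32.4, 3.51-fold above sham. For both genes ES and ischemia were high, and exercise and sham low.

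Lyz2, lysozyme, read 2553 with ES, 984 with exercise, 2073 with ischemia and 925 in sham, 2.24-fold above sham. Mpeg1, perforin-2, was 2.59-fold above sham, Adgre1, the macrophage marker F4/80, 2.20-fold, and Cd14, the endotoxin coreceptor, 2.08-fold. Mnda, an interferon-inducible nuclear protein of myeloid cells, read 95.2, 94.2, 257 and 60.6 and C1qb, a chain of complement C1q, 46.0, 54.9, 95.4 and 47.1. Ischemia was the highest array for both. Cd163, a scavenger receptor of resident macrophages, read 51.9 with ischemia and 65.2 in sham, the one marker of the list with a ratio below 0, and Csf1r, the receptor for the macrophage growth factor, read 141 and 106.

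Of Fc receptor and phagocyte oxidase genes 2 of 9 measured were higher. Cybb, the catalytic subunit of the superoxide-making oxidase, read 521 with ES, 151 with exercise, 440 with ischemia and 151 in sham, 2.91-fold above sham, and Fcgr2b, the inhibitory Fc receptor, was at least 2.18-fold above sham. Among lysosomal and lipid-handling genes 2 of 32 were higher. Apoe, which carries lipid out of macrophages, read 1333, 679, 1422 and 462, 3.07-fold above sham, and Pltp, the phospholipid transfer protein, was 2.30-fold above sham. Scarb1, a receptor for high-density lipoprotein that was in no list, was 2.19-fold above sham on its brightest probe set and at 0.36 in log2 ratio on another. Myeloid genes outside the lists were Clec4a3, a lectin receptor (3.04-fold above sham), Cd300c2 (at the threshold) and Ly86 (2.02-fold), a partner of a Toll-like receptor homolog.

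Antigen presentation genes were within 2-fold in 15 of 15 measured cases. The class II genes nevertheless lay close to the threshold, with RT1-Da at 686 with ischemia and 354 in sham, RT1-Db1 at 244 and 128, and Cd74, the class II invariant chain, at 1244 and 701. Class I components did not, with B2m at 4590 and 4654. Of the chemokines, Ccl2, which draws monocytes, read 70.2 with ES, 25.4 with exercise, 76.4 with ischemia and 26.8 in sham, at least 2.54-fold above sham, and Ccl21, a chemokine of lymphatic vessels, was at least 2.05-fold below sham. Ifitm1 was 2.98-fold above sham at 504 and 169, while Rsad2, another interferon-stimulated gene, was 2.09-fold below it at 123 and 256. The other 22 of 24 measured interferon-stimulated genes were within 2-fold.

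Other cell types were compared through their markers. Of 19 endothelial markers Prox1 alone was past 2-fold, with a summed signal of 5250 with ischemia and 5163 in sham and Pecam1 at 296 and 249. Hypoxia targets had 0 of 24 past 2-fold, against 1.64% of all genes compared, a share at which a list of 24 can readily hold none. Their ratios were above 0 for 11 and below it for 13, with a median of -0.02. The highest was Loxl2, a matrix crosslinking enzyme, at 58.2 with ischemia and 31.9 in sham, and the lowest Egln3, an oxygen-sensing hydroxylase, at 515 and 833. Vegfa, the vascular growth factor gene, read 557 and 721. In the list of angiogenesis and nitric oxide 1 of 24 was past 2-fold, the fibroblast growth factor gene Fgf1, at 96.8 and 203. Smooth muscle and pericyte markers had 2 lower of 18. Actg2, the enteric smooth muscle actin, read 145 with ES, 59.3 with exercise, 55.0 with ischemia and 142 in sham, and Myh11, smooth muscle myosin, 515, 274, 250 and 530. For both genes ES and sham were alike and high, and Acta2, vascular smooth muscle actin, read 284 with ischemia and 268 in sham.

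Of 4 measured red cell genes 0 were past 2-fold, with 3 ratios below 0 and 1 at 0. Hbb, beta globin, read 6999 with ischemia and 10334 in sham, and Alas2, the erythroid haem synthesis enzyme, 139 and 240. An alpha globin gene that was in no list, Hba-a3, read 148 with ES, 209 with exercise, 294 with ischemia and 662 in sham. Npy, neuropeptide Y of sympathetic nerves, read 178, 210, 264 and 588, so sham was the highest array for both. Of the 7 measured Schwann cell markers 0 were past 2-fold, with Mbp at 121 and 205 with ischemia and in sham. The neutrophil markers S100a8 (28.7 and 41.0) and S100a9 (76.2 and 106) were dim. Mast cell, lymphocyte, epithelial and fat cell markers had 0 of 4, 0 of 3, 0 of 5 and 0 of 15 past 2-fold.

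Some lists of general cell functions held no gene past 2-fold. This was so for 23 measured cell cycle genes (median log2 ratio 0.00), 17 circadian clock genes (0.00), 26 antioxidant and metal-binding genes (-0.06), 30 ion channels and pumps (0.14), 21 genes of growth hormone and insulin-like growth factor signalling (0.14) and 20 genes of the dystrophin complex and membrane repair (0.14). Over all genes compared 1.64% were past 2-fold, a share at which each of these lists can readily hold none. The sodium channel gene Scn1a, glutathione transferase gene Gsta4 and glutaredoxin gene Glrx were past 2-fold but outside these lists. In the complement list C1qb was the 1 gene of 11 past 2-fold, and the median was 0.53.

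A small set of genes of bone and nearby connective tissue was above the floor in sham and below it with ischemia. Mmp13, a collagenase of bone and cartilage, read 2.05 with ES, 79.0 with exercise, 6.26 with ischemia and 131 in sham, at least 4.36-fold below sham. Ibsp, bone sialoprotein, read 19.8, 44.3, 8.58 and 108, at least 3.60-fold below sham. Tnn, tenascin N, which is found near bone and tendon, read 2.10, 83.3, 2.25 and 60.3, at least 2-fold below sham. Exercise and sham were above the floor and ES and ischemia below it for these 3 genes. Of 20 bone and cartilage markers on the array, 6 were measured, 2 of them lower and 2 higher with ischemia. The higher ones were Ctsk (2.64-fold) and Acp5 (at least 2.16-fold), which osteoclasts share with macrophages. The summed signal of the list was 415 with ischemia and 439 in sham, and whether pieces of other tissue were taken with the muscle was not tested.

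Of the 166 genes past 2-fold, 81 belonged to none of the 50 lists, 38 higher and 43 lower, and 3 had names that start with LOC. On the lower side Myh10, a non-muscle myosin, was 3.44-fold below sham at 181 and 622, and Lmcd1, a LIM protein, 2.60-fold at 564 and 1466. Actin-binding or actin-regulating genes among the rest were Ablim1 (2.94-fold below sham), Enah (2.73-fold), Arhgap24 (2.06-fold), Actr3b (2.03-fold) and Cdc42ep2 (2.02-fold), and Eps8l2 was at least 3.37-fold below. Other probe sets of Ablim1 and Enah gave log2 ratios of -0.62 and -0.09. Of 16 measured amino acid transporters 1 was lower, the glutamine transporter gene Slc38a1, at 36.4 with ES, 175 with exercise, 41.6 with ischemia and 150 in sham (log2 ratio -0.48 on another probe set). Slc2a13, an inositol transporter in no list, was 2.42-fold below sham (log2 ratio -0.62 on another probe set).

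Other lower genes were Tpd52l1 (3.49-fold), Galnt5 (3.43-fold), Fgfrl1 (2.80-fold), Ift81 (2.79-fold), Otud1 (2.71-fold), Dapk2 (2.61-fold, other probe set -0.10 in log2 ratio), Tent5c (2.59-fold) and Prxl2a (2.56-fold). They also included the ankyrin repeat protein gene Asb18 (2.31-fold), the glutathione transferase gene Gsta4 (2.25-fold), Gtpbp3 (2.20-fold), Spsb4 (2.17-fold), Tnik (2.16-fold), Crym (2.13-fold), Adamts8 (2.09-fold) and Bex1 (2.09-fold). Other probe sets gave log2 ratios of -0.84 for Ift81 and of -0.50 and -0.28 for Tnik. At the floor with ischemia, so that each fold is a lower bound, were Tenm3 (at least 2.98-fold lower), the Notch effector gene Hey2 (2.52-fold), the sodium channel gene Scn1a (2.37-fold), Emx2 (2.32-fold), Lrrc37a (2.27-fold), Endou (2.23-fold), Epn1 (2.19-fold), Vtcn1 (2.11-fold) and Cd6, a surface receptor of T cells (2.11-fold).

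On the higher side the secreted or matrix-bound products outside the lists were those of Ccdc80 (2.37-fold above sham, at 529 and 224), Sned1 (2.31-fold), Aebp1 (2.21-fold, at 406 and 184), Itgbl1 (2.16-fold), Adamts12 (2.13-fold) and Igsf10 (2.07-fold). Plagl1, an imprinted zinc finger factor, read 346 with ES, 105 with exercise, 158 with ischemia and 75.6 in sham. Klf5, a zinc finger factor, was 2.22-fold above sham, with 0.50 and 0.72 in log2 ratio on other probe sets, and Boc, a coreceptor for hedgehog ligands, 2.10-fold. Glrx, glutaredoxin, was 2.58-fold above sham at 375 and 146, and Aldh1l2, a mitochondrial folate enzyme, 2.90-fold. Another probe set of Glrx gave a log2 ratio of 0.96.

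The remaining higher genes were Ikbip (2.60-fold), the phosphatase inhibitor gene Ppp1r14c (2.43-fold), Cercam (2.30-fold), Pik3ip1 (2.29-fold), Nucb2 (2.18-fold), Ccdc92 (2.14-fold, other probe set 0.35 in log2 ratio), Cotl1 (2.11-fold), Fam167b (2.10-fold), Rab13 (2.09-fold), Rab7b (2.08-fold), the tubulin gene Tubb6 (2.05-fold), Numbl (2.04-fold), Pinlyp (2.03-fold) and Fam3c (2.02-fold). At the floor in sham, with folds that are again lower bounds, were Dnm2, a dynamin (at least 2.81-fold higher), Tmem45b (2.24-fold), Fxyd2 (2.14-fold), the retinoic acid carrier gene Crabp2 (2.12-fold) and Elmod2 (2.07-fold).

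Several probe sets allow a check within these 2 arrays. Of the 166 genes, 29 had another probe set above the floor on either array, 40 in all. Of these, 14 were past 2-fold in the same direction, 25 had the same direction within 2-fold and 1 went the other way, a probe set of Tpm3. Dimmer probe sets gave larger ratios for Myh7, Tnni1, Casq2, Klf2, Lox and Col1a1, and smaller ones for others, and why probe sets of a gene differed was not tested.

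**Figure D5:**
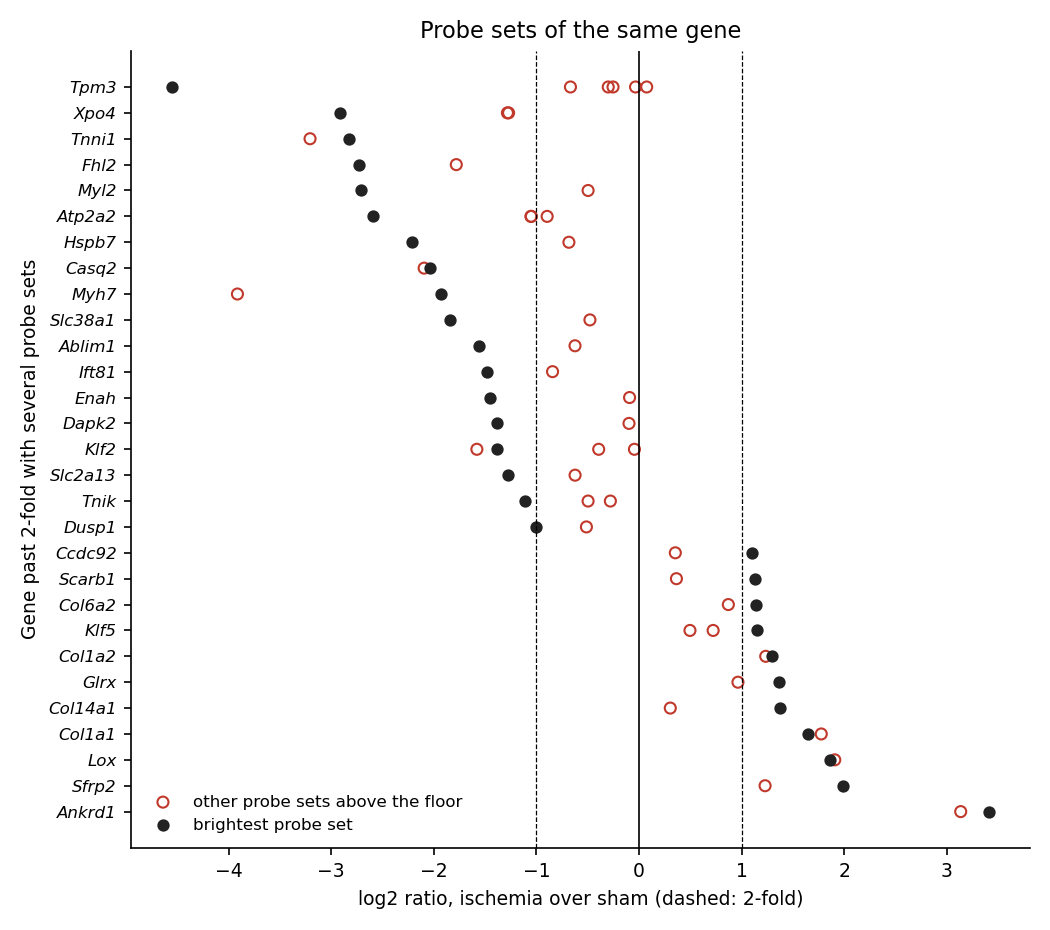
For the 29 genes past 2-fold that had several probe sets above the floor, filled points give the log2 ratio of ischemia over sham of the brightest probe set and open points that of each other one, with dashed lines at 2-fold. Ankrd1, Lox, Col1a1 and Tnni1 agree closely, while Tpm3 has its brightest probe set at -4.55 and the others near 0.

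The ES and exercise arrays are given for reading the levels only. The comparisons of those arrays with ischemia or with sham share an array with the present one, so likeness between comparisons was not counted.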

How the data were processed

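Each group's muscle RNA was hybridised to 1 single-colour array of short oligonucleotide probes. The authors deposited a linear intensity for every probe set, computed by MAS5 per the submitters' processing notes. Per the labels' protocols, the target was biotin-labelled cRNA. After trimming 2% of values, the mean intensity was about 150.1 on each array, so arrays had been scaled before deposit, and a difference in total mRNA cannot be seen. Scanner files and detection calls were not used here.

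The platform annotation gave 1 gene symbol to 20832 of 31099 probe sets, 436 had several and 9831 had none, and 20764 matched a RefSeq gene identifier (GRCr8). Intensities were brought to the same trimmed mean, floored at their pooled median and compared as log2 ratios in Python 3.11.15 (numpy 2.4.6, pandas 2.3.3, scipy 1.17.1). A gene's value was that of the probe set brightest on average over the 4 arrays, and genes at the floor on every array were left out. The calculation was tested on simulated arrays. The 50 gene lists held 852 measured genes, 50 of them in more than 1 list. The lists, the comparison and the rule for named genes were chosen with earlier results of these data known. The rule named every gene past 2-fold except those with symbols that start with LOC or RGD, and list members that are partners of such genes. Alternatives were quantile and cyclic loess normalization (limma 3.58.1), other floors and thresholds, and other ways to represent a gene.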

Additional observations from a re-analysis of the deposited data

How the results depend on the processing

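With 79 genes higher and 87 lower with ischemia in the reported setting, a floor at the 30th percentile gave 251 and 209, and one at the 70th percentile 30 and 50. A threshold of 1.5-fold gave 499 and 322, and one of 3-fold 11 and 32. These counts follow from the genes and sizes that each setting admits. Quantile normalization (65 and 94), cyclic loess normalization (74 and 98), the mean of probe sets (64 and 75), the brightest probe set on the ischemia and sham arrays (80 and 89), leaving out probe sets marked _x_at (79 and 87) and leaving out genes with a probe set going the other way (79 and 86) stayed within 1.5 times. None of the 166 genes reversed its direction under the 10 alternatives in which it was compared. At 2-fold, 20 higher and 43 lower genes were kept under all 8 alternatives to scaling, floor and probe set. Among those kept were Tnnt1, Tnnc1, Tnni1, Myh7, Sln, Ankrd2, Ankrd1, Col1a1, Lox and Gpnmb, and Tpm3 was not among them. At the floor of the 70th percentile, 38 of the 166 were not compared, since dim genes set much of the list. On the mean of probe sets the lists of Fc receptors and oxidase, lysosome, and matrix proteases had 1, 1 and 2 higher genes in place of 2, 2 and 1. On the same setting smooth muscle, amino acid transport, angiogenesis, and ion channel lists had 1, 0, 0 and 1 lower genes in place of 2, 1, 1 and 0. Under cyclic loess the complement list had 0 higher (0 also under quantile normalization), the matricellular list 0 lower and the adipocyte list 1 lower. The macrophage list had 6 of 29 higher under quantile normalization, 7 of 27 under cyclic loess and 7 of 28 on the mean of probe sets. For the matricellular list these were 7 of 37, 8 of 36 and 8 of 36. At the floor of the 70th percentile the 2 lists had 3 of 17 and 3 of 21 higher. On the mean of probe sets 6 of 7 slow contractile genes and 3 of 25 slow-fibre regulators were lower. No paired analysis was possible because each group has 1 array, and no sample could be left out for the same reason.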
